A study of Mus musculus with 6 samples.

Results

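A set of 9 genes of cellular senescence and the p53 pathway were followed in microglia of the aged mouse hippocampus: the cyclin-dependent kinase (CDK) inhibitor genes Cdkn1a, Cdkn1b, Cdkn2a, Cdkn2c and Cdkn2d, the p53 gene Trp53, and Mdm2, Ccng1 and Gadd45a. They were taken by gene symbol, and all 9 were found among the 14148 genes listed, of which 11624 were tested. Microglia, the resident macrophages of the brain, came from 18-month-old male C57BL/6 mice and were stained with BODIPY, a dye for neutral lipid. Live CD11b-positive cells with low CD45 were sorted into a lipid droplet-high (LD-high, BODIPY-high) and a lipid droplet-low (LD-low, BODIPY-low) fraction, with 3 libraries each. Each sample pooled the hippocampi of 3 mice and held about 10000 cells. Neither fraction carried a transgene or a drug treatment in the labels, and no young mice were among the samples, so the comparison is between fractions of aged tissue and not with age.

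Senescence is a lasting exit from the cell cycle. CDK inhibitors hold it in place: the Cip/Kip proteins, encoded by Cdkn1a (p21) and Cdkn1b (p27), bind cyclin-CDK complexes, while the INK4 proteins, encoded by Cdkn2a (p16), Cdkn2c (p18) and Cdkn2d (p19), bind the CDKs that pair with D-type cyclins. Damage signals stabilise the transcription factor p53, which raises Cdkn1a, Ccng1, Gadd45a and Mdm2, and the Mdm2 protein marks p53 for destruction, which closes a feedback loop. Microglia are long-lived cells that divide slowly in the adult brain, and Cdkn2a and Cdkn1a are common readouts when senescence of brain cells is studied.

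Of the 8 members tested, Cdkn1a alone passed, and it fell to 48.8% of its LD-low level in LD-high microglia. Trp53 itself stood at about the same level in both fractions, Mdm2 was slightly lower and Ccng1 slightly higher in LD-high libraries without passing, and the other CDK inhibitor genes did not pass. Cdkn2a was at the edge of detection. Across all genes, 3.36% passed the same test, with 1.82% lower and 1.53% higher in LD-high libraries.

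The promoter windows of Cdkn1a, Mdm2 and Ccng1 are shown because these genes are textbook p53 targets and lay apart between the fractions in every library, Cdkn1a and Mdm2 in 1 direction and Ccng1 in the other. Each window runs 5′ to 3′ on the gene's strand from 250 bases before to 50 bases after a RefSeq start (build GRCm38.p6), and capitals mark exact matches to the p53 decamer, the 10-base unit of p53 response elements, which reads alike on both strands. The Cdkn1a window is that of its upstream start (chr17:29090729-29091028, + strand), the Mdm2 window lies at chr10:117710709-117711008 (- strand) and the Ccng1 window at chr11:40755237-40755536 (- strand).
Cdkn1a: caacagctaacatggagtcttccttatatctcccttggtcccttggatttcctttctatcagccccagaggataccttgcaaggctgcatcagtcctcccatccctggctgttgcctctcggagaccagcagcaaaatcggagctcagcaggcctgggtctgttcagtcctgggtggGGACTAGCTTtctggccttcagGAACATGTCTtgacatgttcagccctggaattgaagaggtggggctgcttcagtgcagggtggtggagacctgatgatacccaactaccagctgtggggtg
Mdm2: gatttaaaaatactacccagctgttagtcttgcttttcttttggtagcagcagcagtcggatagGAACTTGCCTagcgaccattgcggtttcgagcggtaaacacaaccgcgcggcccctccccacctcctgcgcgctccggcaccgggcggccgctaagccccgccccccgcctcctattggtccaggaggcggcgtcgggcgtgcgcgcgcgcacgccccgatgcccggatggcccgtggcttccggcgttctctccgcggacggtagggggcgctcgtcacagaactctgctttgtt
Ccng1: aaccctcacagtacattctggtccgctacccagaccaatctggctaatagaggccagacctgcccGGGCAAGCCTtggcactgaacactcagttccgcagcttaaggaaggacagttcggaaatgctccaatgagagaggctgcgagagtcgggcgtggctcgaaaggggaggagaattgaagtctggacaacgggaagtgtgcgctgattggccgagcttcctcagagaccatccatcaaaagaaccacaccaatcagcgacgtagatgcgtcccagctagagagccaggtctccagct

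All 9 members matched the RefSeq promoter table, with 12 windows between them. A p53 decamer stood in 6 of these 12 windows, against 8.36% of all 32851 windows in the table. The 6 were the upstream window of Cdkn1a and those of Cdkn2d, Trp53, Mdm2, Ccng1 and Gadd45a. The downstream window of Cdkn1a (chr17:29093519-29093818, GRCm38.p6) held none. Pairs of decamers form a response element. Within 3000 bases on either side of the annotated start in mm9, and with at most 13 bases between the decamers and 1 mismatch outside their cores, such pairs were found at Cdkn1a, Ccng1 and Gadd45a, and at 11.7% of 22380 protein-coding genes. At Cdkn1a a pair 12 bases apart matched without mismatch, which 1.79% of genes had. It begins 73 bases before the annotated start of the gene (chr17:29227851-29227882, + strand, mm9). All elements are shown on the gene's strand with the core of each decamer in capitals. The others shown have 1 mismatch each and begin 51 bases before the start of Cdkn1a (chr17:29227873-29227892, + strand, mm9), 356 bases after that of Ccng1 (chr11:40568438-40568457, - strand) and 426 bases before that of Gadd45a (chr6:66987854-66987877, - strand).
Cdkn1a, no mismatch: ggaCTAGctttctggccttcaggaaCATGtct
Cdkn1a, 1 mismatch: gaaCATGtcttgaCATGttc
Ccng1: acgCAAGcccgggCTAGtct
Gadd45a: aagCAAGctttgcccggCATGtct
The Cdkn1a pairs share a decamer, and another pair at Gadd45a, also with 1 mismatch, overlaps the one shown. These matches describe the letters of the windows, and binding of p53 was not measured here.

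Libraries held 15895576 to 38489448 reads in genes and 12987 to 13527 genes with at least 1 read. Values are normalized counts, that is, reads divided by 1 size factor per library. With limma and Benjamini-Hochberg adjustment, 178 genes were higher and 212 lower in LD-high libraries, while scaling to equal totals gave 118 and 233. The microglial marker genes checked, P2ry12, Tmem119, Cx3cr1, Sall1 and Csf1r, summed to 881800 to 1087000 normalized counts in LD-high and 969000 to 1149000 in LD-low libraries, and none of the 5 passed. Neutrophil markers were at 0 reads in all LD-high libraries for the 6 markers in the table (S100a8, S100a9, Ngp, Camp, Ltf and Lcn2), against sums of 1220, 1583 and 4523 normalized counts in LD-low replicates 1, 2 and 3. Monocyte markers summed to 90.7 to 127 normalized counts in LD-high and 281 to 653 in LD-low libraries, with Ly6c2, Chil3 and Vcan at 0 in all LD-high libraries. Of the 2 tested, 1 passed as lower, Chil3, which held 123, 172 and 506 normalized counts in LD-low replicates 1, 2 and 3. The other, Ccr2, overlapped between the groups and did not pass. Choroid plexus markers summed to 712 to 2211 in LD-high and 118 to 740 in LD-low libraries, with 2 of 4 tested markers higher. In bulk samples such as these, fewer cells that express a gene and less of its RNA per cell cannot be told apart.

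Per kilobase of annotated exon, the members spanned a wide range of levels. Ccng1, Trp53 and Mdm2 stood highest, with 691 ± 20.5, 623 ± 28.0 and 483 ± 42.7 normalized counts per kilobase in LD-high libraries and 592 ± 35.8, 619 ± 18.9 and 558 ± 35.8 in LD-low libraries (mean ± SD, n = 3 each). Cdkn1a followed at 113 ± 23.4 in LD-high and 231 ± 26.0 in LD-low libraries. Ccng1 lay above Trp53 in each LD-high library, while the ranges of these genes overlapped among LD-low libraries. Cdkn2c (27.1 ± 4.11 in LD-high and 35.2 ± 8.01 in LD-low) and Cdkn2d (30.0 ± 5.14 in LD-high and 25.1 ± 4.14 in LD-low) overlapped in both fractions and did not differ beyond their spread. Cdkn1b (12.96 ± 3.59 in LD-high and 18.0 ± 0.732 in LD-low), Gadd45a (5.63 ± 2.43 in LD-high and 7.12 ± 3.02 in LD-low) and Cdkn2a (1.33 ± 0.645 in LD-high and 3.43 ± 0.939 in LD-low) were lowest, and the last pair overlapped among LD-low libraries. The most abundant CDK inhibitor transcript of the members was thus Cdkn1a in both fractions.

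**Figure D1:**
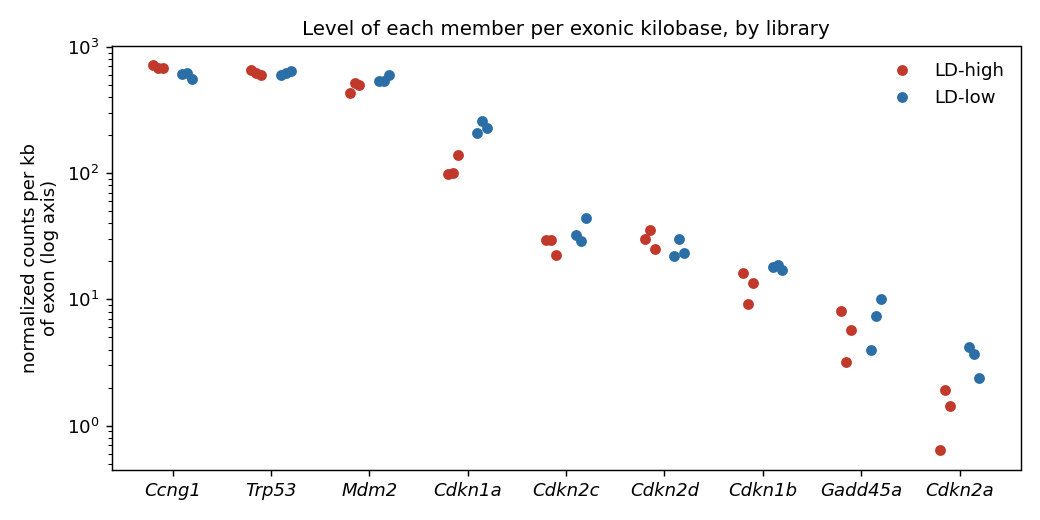
Normalized counts per kilobase of annotated exon (log axis) for each member, with 1 point per library, LD-high in red and LD-low in blue (n = 3 each). Ccng1, Trp53 and Mdm2 lie near the top, Cdkn1a follows with its LD-high points below its LD-low points, and Cdkn2a is lowest at 1.33 in LD-high and 3.43 in LD-low libraries on average.

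Among the Cip/Kip genes, Cdkn1a encodes the p21 protein, the inhibitor through which p53 stops the cell cycle, and lies on chromosome 17 from 29227924 to 29237667 (mm9, + strand). It had 218, 223 and 311 normalized counts in LD-high replicates 1, 2 and 3, against 460, 575 and 505 in LD-low replicates 1, 2 and 3. The highest LD-high library lay below the lowest LD-low library, so the groups did not overlap. These values rest on 293, 199 and 186 reads in LD-high and 656, 531 and 544 reads in LD-low libraries. The mean was 250.5 ± 52.0 in LD-high and 513.5 ± 57.7 in LD-low libraries (SD, n = 3 each). In limma the log2 change was -1.05 ± 0.15 (SE), with a 95% interval of -1.37 to -0.72 and an adjusted p of 0.003. Of all genes tested, 21 had a smaller p, and 42 of the genes called had a more negative log2 change.

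Cdkn1a passed in each of the 6 fits that left out 1 library, with adjusted p between 0.00115 and 0.0259 in limma and log2 changes between -1.21 and -0.96. Without a mean-variance trend, where 15 genes passed in all, it did not pass (adjusted p 0.144, from a range of 1.17e-07 to 0.144 over the 16 alternatives). The neutrophil markers were lower in LD-high libraries too, with sums of 0 against the sums given above, of which LD-low replicate 3 held the highest. Without LD-low replicate 3 the log2 change of Cdkn1a was -1.05 with an adjusted p of 0.0227 in limma. That fit cannot separate the 2 differences, since LD-low sums of 1220 and 1583 still stood against 0. Border-associated macrophage markers also leaned lower in LD-high libraries: none of 8 tested passed, none had a positive log2 change, and the median was -0.74. The 9 in the table summed to 342 to 575 normalized counts in LD-high and 546 to 944 in LD-low libraries, which overlapped. The largest gap in means was that of Ccr1 (200 in LD-high and 390 in LD-low). Mrc1 (136 and 144), Lyve1 (9.99 and 10.28) and Ms4a7 (12.04 and 12.75) had means close to each other. The part of the neutrophil, monocyte and border-associated macrophage transcripts in the Cdkn1a difference was not tested.

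Cdkn1b encodes p27, which binds cyclin-CDK complexes and is controlled largely through protein stability (chromosome 6, 134870419 to 134875531, + strand). It had 73.7, 41.4 and 61.8 normalized counts in LD-high replicates 1, 2 and 3, against 82.8, 84.4 and 78.0 in LD-low replicates. The groups did not overlap, and the LD-high libraries scattered widely while the LD-low libraries lay close together. The log2 change of -0.50 ± 0.27 did not pass in limma (adjusted p 0.318), with a 95% interval of -1.08 to 0.07 that reaches from a change as large as that of Cdkn1a to none. Leaving out LD-high replicate 2, the lowest library, moved the log2 change to -0.27.

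**Figure D2:**
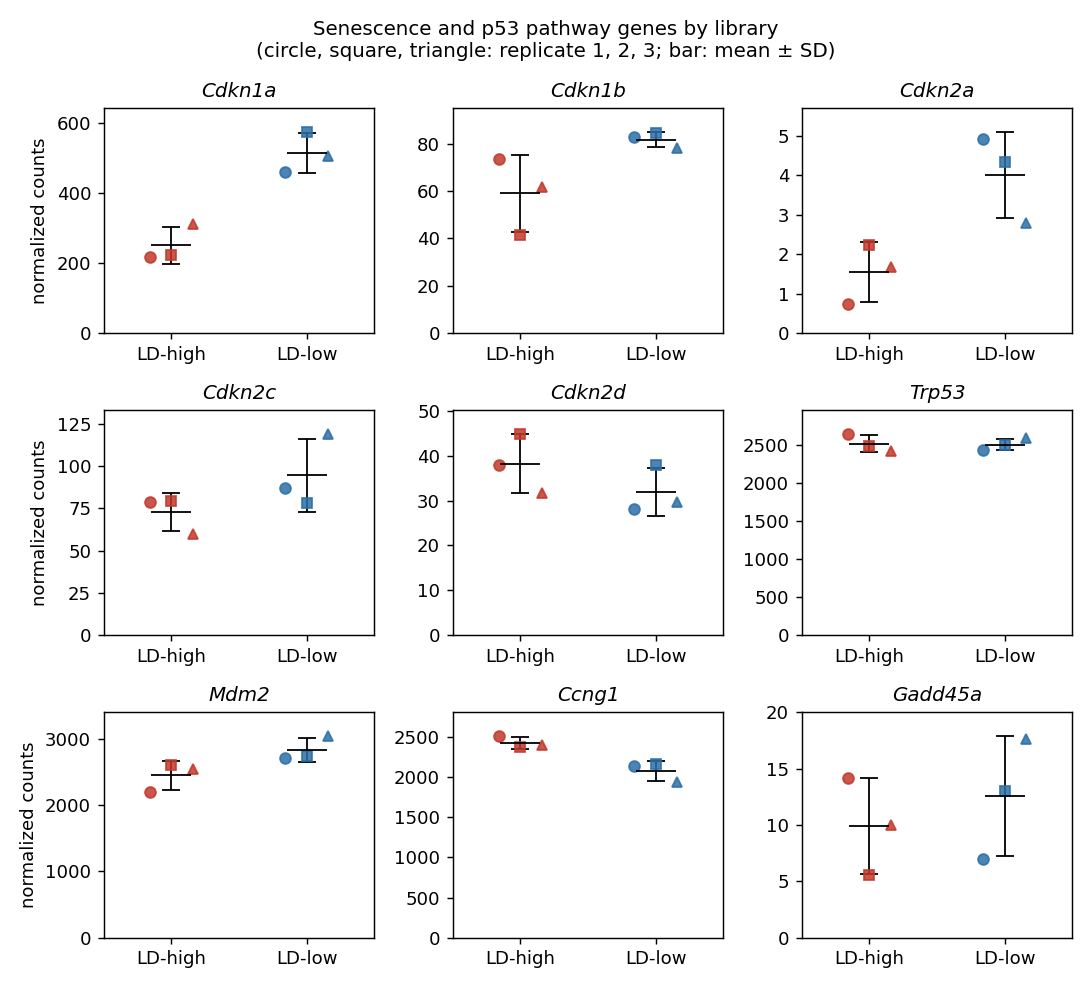
Normalized counts of the 9 members in each library (linear axes from 0), LD-high in red on the left and LD-low in blue on the right, with circle, square and triangle for replicates 1, 2 and 3 and black bars for the mean ± SD (n = 3 each). The LD-high points lie below all LD-low points for Cdkn1a, Cdkn1b, Cdkn2a and Mdm2, above them for Ccng1, and overlap them for the other 4 genes.

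Among the INK4 genes, Cdkn2a gives rise to p16 and, from another first exon and reading frame, to ARF, which restrains Mdm2 (chromosome 4, 88920377 to 88940557, - strand). The table has 1 value per gene, so these products cannot be separated. Cdkn2a had 1, 2 and 1 reads in LD-high replicates 1, 2 and 3, against 7, 4 and 3 reads in LD-low replicates, or 0.745, 2.24 and 1.67 normalized counts against 4.91, 4.33 and 2.79. The LD-high values lay below the LD-low values in every library, on 4 reads in all against 14. A library without any read could still have held up to 3 reads, which at these depths equals 2.11 to 5.01 normalized counts, and each LD-high value lay under its own library's floor. Cdkn2a failed the filter on low values (at least 10 normalized counts in 3 libraries) and was not tested. In a fit without the filter its adjusted p was 0.51 in limma, so a difference was not detectable at this depth.

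Cdkn2c encodes p18 (chromosome 4, 109333481 to 109339794, - strand) and had 79.0, 79.5 and 60.1 normalized counts in LD-high replicates 1, 2 and 3, against 87.0, 77.9 and 118.9 in LD-low replicates. The groups overlapped, since LD-low replicate 2 lay below the upper LD-high libraries. The log2 change was -0.36 ± 0.25 with an adjusted p of 0.441 in limma and an interval of -0.89 to 0.17. Leaving out LD-low replicate 3 gave -0.19, and leaving out LD-high replicate 3 gave -0.23. Cdkn2d encodes the INK4 protein p19 (chromosome 9, 21092907 to 21095653, - strand) and had 38.0, 44.8 and 31.7 normalized counts in LD-high replicates 1, 2 and 3, against 28.1, 37.9 and 29.7 in LD-low replicates. These values overlapped as well, with a log2 change of 0.25 ± 0.34 and an adjusted p of 0.735 in limma (interval -0.47 to 0.97), and 0.13 without LD-high replicate 2. Cdkn2b, the neighbouring INK4 gene on chromosome 4 that encodes p15, was looked at to complete the family after its values were seen. It had 28.3, 21.3 and 20.04 normalized counts in LD-high replicates 1, 2 and 3, against 26.7, 49.8 and 40.9 in LD-low replicates, which overlapped (log2 change -0.70 ± 0.38, adjusted p 0.329 in limma).

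Trp53, which encodes p53, lies on chromosome 11 from 69393861 to 69405375 (+ strand). It had 2643, 2489 and 2423 normalized counts in LD-high replicates 1, 2 and 3, against 2433, 2494 and 2585 in LD-low replicates. The ranges of both groups covered each other almost fully, and the coefficient of variation was 4.5% among LD-high and 3.06% among LD-low libraries. The log2 change was 0.01 ± 0.07 with a 95% interval of -0.14 to 0.16 (adjusted p 0.966 in limma). The interval holds changes of either sign and leaves out changes of the size seen for Cdkn1a. p53 is controlled mainly through the stability and modification of its protein, which these data do not measure.

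Mdm2, the ubiquitin ligase that marks p53 for degradation and is itself a p53 target, lies on chromosome 10 from 117125944 to 117147814 (- strand). It had 2199, 2597 and 2546 normalized counts in LD-high replicates 1, 2 and 3, against 2713, 2732 and 3036 in LD-low replicates. All LD-high libraries lay below all LD-low libraries. The log2 change of -0.21 ± 0.08 did not pass over all genes (unadjusted p 0.0216, adjusted p 0.172 in limma, interval -0.38 to -0.04). It was -0.13 without LD-high replicate 1, the lowest library. Its relative Mdm4, which blocks p53 as a transcription factor and was named after its values were seen, had 810, 770 and 780 in LD-high replicates and 707, 736 and 1055 in LD-low replicates, with a log2 change of -0.06 ± 0.13 (adjusted p 0.857 in limma).

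Ccng1 encodes cyclin G1, a p53 target that recruits a phosphatase to Mdm2 (chromosome 11, 40562054 to 40568813, - strand). It had 2508, 2372 and 2399 normalized counts in LD-high replicates 1, 2 and 3, against 2142, 2164 and 1936 in LD-low replicates. All LD-high libraries lay above all LD-low libraries, the reverse of Cdkn1a and Mdm2. The log2 change was 0.22 ± 0.07 with an interval of 0.06 to 0.38, and it did not pass over all genes (unadjusted p 0.00897, adjusted p 0.113 in limma). Marker sums of other cell types lay higher in LD-high libraries as well, those of the choroid plexus with some overlap. The 7 oligodendrocyte markers, of which 5 were tested and none passed, summed to 5453 to 6013 normalized counts in LD-high and 4648 to 4896 in LD-low libraries. The 6 astrocyte markers, of which 2 were tested and none passed, summed to 7949 to 8855 in LD-high and 6466 to 7795 in LD-low libraries. Nearly all of that sum was Slc1a3 (means 8463 in LD-high and 7183 in LD-low). Aldoc and Gja1 also had higher LD-high means. Gfap, Aqp4 and Slc1a2 had lower ones, Gfap at 5.27 against 14.4 without overlap and Aqp4 at 0 in all LD-high libraries. Their part in the Ccng1 values was not tested.

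Gadd45a encodes a stress sensor that p53 raises after DNA damage (chromosome 6, 66985090 to 66987451, - strand). It had 14.2, 5.6 and 10.02 normalized counts in LD-high replicates 1, 2 and 3, against 7.02, 12.99 and 17.6 in LD-low replicates, on 5 to 19 reads per library. The values overlapped throughout, and the coefficient of variation was 43.1% in LD-high and 42.5% in LD-low libraries. The log2 change of -0.31 ± 0.62 had an interval of -1.64 to 1.02 (adjusted p 0.835 in limma). That interval spans falls larger than that of Cdkn1a and rises nearly as large, so a difference was not detectable at this depth. The gene shares 337 exonic bases with the antisense transcript E230016M11Rik, and the libraries do not mark strand, so its few reads cannot be assigned with certainty. No other member overlapped an annotated gene.

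**Figure D3:**
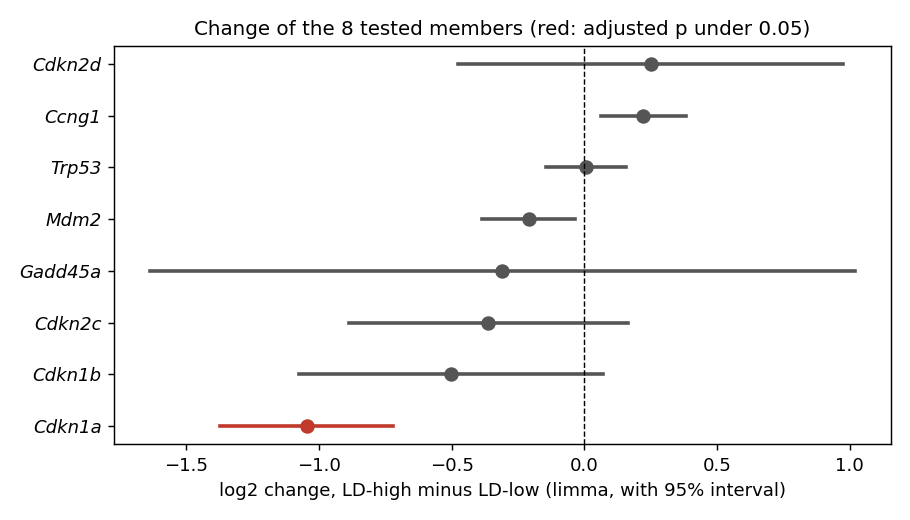
Log2 change of the 8 tested members, LD-high minus LD-low, from limma on log2(normalized count + 1), with 95% intervals as lines (n = 3 libraries per group). Cdkn1a, in red, is the single gene past the adjusted threshold at -1.05, while Trp53 sits at 0.01 with a narrow interval and Gadd45a at -0.31 with the widest.

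In all, 4 of the 8 tested members did not overlap between the groups (3 lower and 1 higher in LD-high libraries), against 24.3% of all tested genes (11.7% lower and 12.7% higher). The log2 change was negative in 5 of the 8 and positive in 3, with a median of -0.26, against -0.01 over all tested genes.

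The wider pathway was read from 6 gene lists. Of 23 tested p53 target genes other than the members, none passed in limma, edgeR or DESeq2, and 3 more in the table lay under the filter and were not tested. An unadjusted p under 0.05 was reached by 4 of the 23, where 19.8% of all tested genes reached it. Their median log2 change was -0.04, beside -0.01 over all tested genes, and their changes ran from -0.81 to 0.46. The change was positive in 5 of the 23 and negative in the rest. The lowest p belonged to the pro-apoptotic gene Bax, with 862, 893 and 1050 normalized counts in LD-high replicates 1, 2 and 3, against 1035, 1253 and 1150 in LD-low replicates (log2 change -0.29 ± 0.10, adjusted p 0.127 in limma). LD-high replicate 3 overlapped the LD-low range of Bax. Next was Pidd1, a gene of the p53-induced death domain platform, with a log2 change of -0.39 ± 0.15 (adjusted p 0.174 in limma).

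Among 14 tested genes that activate or regulate p53, none passed in limma, edgeR or DESeq2, and 2 had an unadjusted p under 0.05, beside 19.8% of all tested genes. The median log2 change was -0.06. The 2 were Atm, the kinase gene of the response to DNA breaks, with 179, 180 and 170 normalized counts in LD-high replicates against 242, 202 and 225 in LD-low replicates (log2 change -0.33 ± 0.15, adjusted p 0.247 in limma), and the kinase gene Hipk2 (-0.21 ± 0.09, adjusted p 0.208). Neither gene overlapped between the groups.

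On the list of Gadd45 relatives and other CDK inhibitors, 1 of 5 tested genes fell and 4 did not pass, where 1.82% of all tested genes fell. Gadd45g, a stress-inducible relative of Gadd45a, had 398, 419 and 402 normalized counts in LD-high replicates 1, 2 and 3, against 571, 717 and 496 in LD-low replicates. The groups did not overlap, and the log2 change was -0.53 ± 0.13 with an adjusted p of 0.0413 in limma. Its call was lost in each of the 6 fits that left out 1 library, with adjusted p from 0.0572 without LD-low replicate 3 to 0.187 without LD-low replicate 2. The neutrophil sums given above were lower in LD-high libraries too, and their part was not tested. Gadd45b and the Cip/Kip gene Cdkn1c, also chosen after their values were seen, did not pass, Gadd45b at a log2 change of -0.19 ± 0.40 (adjusted p 0.842 in limma) and Cdkn1c at 0.04 ± 0.19 (0.941).

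Genes downstream of the CDK inhibitors did not pass in the main limma fit. Of 18 tested Rb, E2F and G1 cyclin-CDK genes none passed in limma or edgeR and 1 in DESeq2, with 3 at an unadjusted p under 0.05 (19.8% of all tested genes) and a median log2 change of -0.05. Rbl2, which encodes the Rb relative p130, had 2580, 2320 and 2337 normalized counts in LD-high replicates 1, 2 and 3, against 2228, 1683 and 1899 in LD-low replicates, without overlap (log2 change 0.32 ± 0.10, adjusted p 0.0754 in limma). Rbl2 was the gene that passed in DESeq2 (adjusted p 0.0409). It also passed in limma without LD-low replicate 1 (adjusted p 0.0219), within a range of 0.00896 to 0.280 over its alternatives. Cdk6, a partner of D-type cyclins, had a log2 change of -0.41 ± 0.16 (adjusted p 0.166 in limma).

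Of 16 tested proliferation genes none passed in limma, edgeR or DESeq2, with 6 at an unadjusted p under 0.05, beside 19.8% of all tested genes. The median was -0.03 with changes from -1.82 to 0.29. Of the 16, 7 had a positive change, among them Pcna, Mcm2, Mcm3, Mcm4 and Mcm5. The negative ones included Mki67, Ccnb2, Ccna2, Ccnb1, Birc5 and Top2a. Ccnb2, a mitotic cyclin gene, had 38.0, 6.72 and 15.03 normalized counts in LD-high replicates 1, 2 and 3, against 52.6, 65.0 and 44.6 in LD-low replicates, without overlap (log2 change -1.69 ± 0.50, adjusted p 0.0784 in limma). It passed without LD-high replicate 1 (adjusted p 0.0240), within a range of 0.0240 to 0.253 over its alternatives. Pcna, the sliding clamp of DNA replication, had 845, 839 and 816 in LD-high replicates and 667, 664 and 708 in LD-low replicates, also without overlap but in the other direction (log2 change 0.29 ± 0.09, adjusted p 0.0906 in limma).

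On the list of senescence-associated secretory and structural genes, 1 of 23 tested genes rose and 2 fell, while 20 did not pass. Of all tested genes, 1.53% rose and 1.82% fell. An unadjusted p under 0.05 in limma was reached by 6 of the 23, beside 19.8% of all tested genes. The median log2 change of the 23 was -0.20, beside -0.01 over all tested genes. Igfbp4, which encodes a binding protein for insulin-like growth factors, fell to 681, 635 and 690 normalized counts in LD-high replicates 1, 2 and 3, against 952, 913 and 979 in LD-low replicates (log2 change -0.50 ± 0.09, adjusted p 0.0125 in limma). The membrane-bound matrix protease gene Mmp14 fell to 1298, 1428 and 1444 in LD-high replicates, against 2000, 1780 and 1845 in LD-low replicates (-0.43 ± 0.08, adjusted p 0.0147). Timp2, which encodes an inhibitor of matrix proteases that also takes part in activating them with Mmp14, rose to 36068, 32445 and 32351 in LD-high replicates, against 29716, 25956 and 26085 in LD-low replicates (0.30 ± 0.08, adjusted p 0.0429). The groups did not overlap for any of these genes.

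Igfbp4 and Mmp14 were lost without LD-low replicate 3 (adjusted p 0.0690 and 0.0645 in limma), with log2 changes of -0.48 and -0.44 there, and passed without each of the other libraries. Timp2 was lost without LD-high replicates 1, 2 and 3 (adjusted p 0.134, 0.0841 and 0.0960) and without LD-low replicates 2 and 3 (0.191 and 0.154). The neutrophil sums fell and the choroid plexus and oligodendrocyte sums given above lay higher in LD-high libraries, and their part in these genes was not tested.

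**Figure D4:**
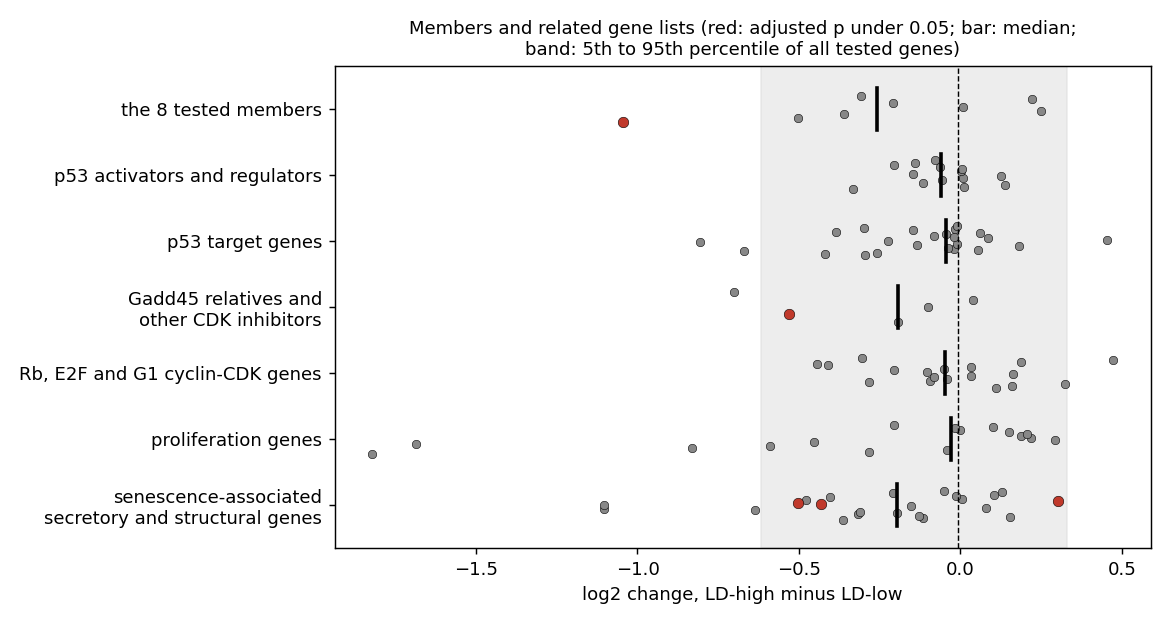
Log2 change, LD-high minus LD-low, of the 8 tested members and of the tested genes on 6 related lists, 1 point per gene, red where the adjusted p in limma passed, with black bars at each list's median. The grey band spans the 5th to 95th percentile of all tested genes, and the red points are Cdkn1a at -1.05, Gadd45g at -0.53, Igfbp4 at -0.50, Mmp14 at -0.43 and Timp2 at 0.30.

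The genes whose levels ran most like those of the leading members across the 6 libraries were found by the root mean square distance between log2 values, each centred on its own mean, among 10199 other genes that averaged 50 normalized counts or more. Closest to Cdkn1a were Hyal3, at a distance of 0.088 log2 units, and Usp34, at 0.089. Usp34 had 129, 114 and 169 normalized counts in LD-high replicates 1, 2 and 3, against 257, 318 and 315 in LD-low replicates, so that LD-high replicate 3 was the highest of its group, as for Cdkn1a. Hyal3 had 35.01, 39.2 and 45.1 in LD-high replicates and 75.8, 97.4 and 79.0 in LD-low replicates, with LD-low replicate 2 highest, as for Cdkn1a. Closest to Ccng1 were Ndufa9 and Vdac2 (0.014 and 0.017), both with all LD-high libraries above all LD-low libraries. Ndufa9 had 2876, 2765 and 2730 normalized counts in LD-high replicates and 2438, 2520 and 2229 in LD-low replicates. Closest to Mdm2 were Amigo3 and Timm10b (0.034 and 0.035). With 6 libraries and this many genes, close profiles arise readily, and these distances are a description only.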

How the data were processed

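RNA from sorted microglia was amplified with a low-input Smart-seq kit and tagmented, per the labels' protocols, which marks no strand. FastQC 0.11.4, STAR 2.5.1b on mm9 with its per-gene counting and DESeq2 were used, per the submitters' processing notes and design text. For the annotation, strand setting and filter on genes, nothing is stated in the sources used here. The authors' deposited table holds a normalized signal: gene counts divided by 1 size factor per library (0.599 to 1.43). All values were whole multiples of 1 step per library within 0.01 reads (100%), so reads could be recovered. The recovered reads gave the count tests used as alternatives, of which edgeR called 377 genes.

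Genes with at least 10 normalized counts in 3 libraries (11624; 2524 left out) were tested with limma 3.58.1 (R 4.3.3, trended variances) on log2(normalized count + 1), a scale that understates changes of low genes, 2-sided, with Benjamini-Hochberg adjustment over all tested genes and 0.05 as the threshold. Alternatives were pseudocounts of 0.5 and 5, TMM factors, a filter of 50 or none, equal totals, edgeR 4.0.16, DESeq2 1.42.0, no trend, each library left out in turn, and the replicate number as a block. Tests were tested on simulated data.

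Members and lists were chosen with earlier results of these data known. Named are the 9 members, for each list the genes that passed (up to 5) or otherwise the 2 with the smallest p, the 2 closest profiles per member (given for Cdkn1a, Mdm2 and Ccng1), and genes said to be named after their values were seen. Coordinates and exon lengths come from GENCODE vM1 on NCBIM37 (mm9), which held 12949 of the table's symbols, and promoter windows from RefSeq (GRCm38.p6), whose coordinates were not combined with mm9. Nothing says whether the pools hold different mice, so p-values may measure technical spread between these samples alone. Floors cover counting error only, since amplified reads without molecular identifiers are not independent molecules.

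Besides the microglial markers given, 1 further marker gene is not reported here.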

Additional observations from a re-analysis of the deposited data

How the results depend on the processing

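Cdkn1a kept its direction in all 16 alternatives and passed in 15, the exception being limma without a mean-variance trend, where 0 members, 0 list genes and 15 genes in all passed. The other 7 tested members passed in none, except Ccng1 with the replicate block. Over all genes, 390 passed in the comparison as reported, 729 with DESeq2, and 52 (without LD-low replicate 3) to 421 (without LD-low replicate 1) when 1 library was left out. Leaving out LD-high replicate 1, 2 or 3 gave 231, 201 and 90 genes, and leaving out LD-low replicate 2 gave 82. The member count was 1 in each of these 6 fits, and the count of list genes, 4 as reported, ran from 0 (without LD-low replicate 3) to 5. The sign of the log2 change of Trp53 turned to -0.035 with equal totals and -0.013 without LD-low replicate 1, and ran from -0.028 (LD-high replicate 1 left out) to 0.035 over the fits without 1 library. That of Gadd45a ran from -0.65 to 0.015 (LD-high replicate 2 left out) over those fits. Cdkn1c turned to -0.004 with equal totals and ran from -0.22 (LD-high replicate 3 left out; -0.067 for LD-low replicate 3) to 0.22, and Mdm4 ran from -0.16 to 0.13 (LD-low replicate 3 left out). The cause was not tested.

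The titles number LD-high and LD-low samples alike, with nothing that says why. Deviations from the group means correlated across genes by 0.161, 0.132 and 0.0641 for numbers 1, 2 and 3, and each library correlated best with its own number, a hint from the data and not from the design. With the replicate block in limma, 1090 genes, 2 members and 11 list genes passed. The members were Cdkn1a and Ccng1, with Ccng1 at an adjusted p of 0.0456 from a range of 0.0456 to 0.326. Among the list genes were Rbl2, Ccnb2 and Bax (adjusted p 0.00896, 0.0318 and 0.0457), which did not pass in the comparison as reported. Bax passed in no other alternative, while Rbl2 and Ccnb2 did. Depth limits Cdkn2a and Gadd45a, at 1 to 7 and 5 to 19 reads per library.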
